A study of Mus musculus with 2 samples.

Results

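The mitosis genes are 50 genes, taken by symbol from a list of known mitotic regulators and machinery. The rule looks at the symbol and biotype alone. All 50 were found. They are represented by 118 transcripts annotated as protein_coding in GENCODE M21, of 49490 such transcripts of 21574 genes in the deposited data. The values come from wild-type (WT) mouse embryonic stem cells of the line DTCM23/49 XY, a pluripotent cell type, depleted of feeder cells. For 10 min the cells received 200 µM 4-thiouridine (4sU), which is incorporated in place of uridine during transcription. RNA with 4sU was then pulled down through biotin. The pulled-down (labeled) RNA and the RNA left in the supernatant (unlabeled RNA) gave 1 library each, both of replicate 1. The sample labels call the second library total RNA in one place and preexisting RNA in another, and it was used here as unlabeled RNA. With 1 library per pool no difference has a replicate check, and no test was made. All differences below are between these libraries.

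Entry into mitosis is driven by the kinase Cdk1 with its cyclins, and exit by the anaphase promoting complex, a ubiquitin ligase that marks cyclins and securin for destruction. Between these steps the chromosomes condense, attach to the spindle through kinetochores, and wait for the spindle checkpoint to release them. Many of the genes are transcribed late in the cell cycle, and their promoters are known for a pair of short elements, the cell cycle genes homology region (CHR, TTTGAA) and the CCAAT box. Embryonic stem cells divide fast, with short gap phases.

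The promoters of 5 members are shown because these genes mark the ends of the measured range or its best known regulators. Plk1 was the member with the lowest labeled to unlabeled ratio, Pttg1 and Birc5 were the highest, Ccnb2 is a mitotic cyclin, and Top2a had the highest exon value in unlabeled RNA. Each sequence runs from 250 bases before to 50 bases from the annotated start, 5′ to 3′ on the strand of the gene, from RefSeq on GRCm38.p6. Capitals mark matches to TTTGAA or CCAAT, also where the match lies on the opposite strand.
Plk1, chr7:122159185-122159484, plus strand: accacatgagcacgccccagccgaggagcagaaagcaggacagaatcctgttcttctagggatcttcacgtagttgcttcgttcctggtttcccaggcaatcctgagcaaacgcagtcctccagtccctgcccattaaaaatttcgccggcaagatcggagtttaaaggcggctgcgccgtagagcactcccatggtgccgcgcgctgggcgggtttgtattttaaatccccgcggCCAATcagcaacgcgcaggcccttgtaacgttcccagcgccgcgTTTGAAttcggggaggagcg
Ccnb2, chr9:70421505-70421804, minus strand: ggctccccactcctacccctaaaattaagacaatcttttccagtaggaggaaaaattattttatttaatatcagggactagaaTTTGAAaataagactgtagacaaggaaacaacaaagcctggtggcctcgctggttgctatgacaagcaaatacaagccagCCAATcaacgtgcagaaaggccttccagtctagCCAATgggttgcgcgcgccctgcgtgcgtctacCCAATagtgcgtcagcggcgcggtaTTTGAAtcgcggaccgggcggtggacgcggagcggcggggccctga
Top2a, chr11:99024140-99024439, minus strand: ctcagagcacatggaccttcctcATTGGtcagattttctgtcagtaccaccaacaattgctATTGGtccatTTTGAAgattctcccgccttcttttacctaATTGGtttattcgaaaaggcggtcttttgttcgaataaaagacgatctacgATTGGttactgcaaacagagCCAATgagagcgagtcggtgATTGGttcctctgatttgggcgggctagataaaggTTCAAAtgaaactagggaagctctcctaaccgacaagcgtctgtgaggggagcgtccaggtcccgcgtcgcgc
Pttg1, chr11:43425932-43426231, minus strand: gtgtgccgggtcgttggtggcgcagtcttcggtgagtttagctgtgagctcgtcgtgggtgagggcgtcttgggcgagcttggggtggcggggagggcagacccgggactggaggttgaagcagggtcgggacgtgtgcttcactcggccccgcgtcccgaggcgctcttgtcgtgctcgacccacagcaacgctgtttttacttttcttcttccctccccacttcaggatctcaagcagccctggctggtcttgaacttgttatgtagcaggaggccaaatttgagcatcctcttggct
Birc5, chr11:117848987-117849286, plus strand: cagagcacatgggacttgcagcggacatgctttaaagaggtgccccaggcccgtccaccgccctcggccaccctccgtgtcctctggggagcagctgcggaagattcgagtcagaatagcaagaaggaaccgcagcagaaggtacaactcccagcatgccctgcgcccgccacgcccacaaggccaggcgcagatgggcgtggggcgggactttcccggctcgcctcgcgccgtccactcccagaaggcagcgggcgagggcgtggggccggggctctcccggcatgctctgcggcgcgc

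The Plk1 promoter holds 1 CHR and 1 CCAAT match, that of Ccnb2 2 and 3, and that of Top2a 2 and 6. The windows shown for Pttg1 and Birc5 hold neither. The RefSeq start used for Pttg1 lies inside the gene. Its lead transcript begins at 43426202 on the minus strand, so most of the window 43425932-43426231 is transcribed sequence. The region upstream of that lead start was largely not searched. Windows of other members, such as Kif2c and Plk4, also lie away from the starts of their lead transcripts (117182639 and 40800781). RefSeq promoters were found for 41 of the 50 members (44 promoters, since 3 members have more than 1). The other 9 are Aurkb, Ccna2, Cdc25c, Foxm1, Incenp, Kif20a, Smc4, Tpx2 and Wee1. The letters TTTGAA stood on either strand in 32 of the 44 promoters (72.7%), against 17.9% of 32851 promoters of the same length over all genes. The letters CCAAT stood in 33 of them (75%), against 37.4% of all promoters. Both occurred in 28 (63.6%, against 6.95%) and neither in 7 (15.9%, against 51.7%). Either element thus stood in a larger share of member promoters than of promoters at large. Of the 40 CHR matches in member promoters, 29 (72.5%) began between 60 bases before and 50 bases after the start, with a median position of -10 (negative before the start), against 28.2% of 6737 matches in all promoters. The 74 CCAAT matches lay further upstream, with a median position of -72.5, against -92 in all promoters. The promoters of Bub3, Ect2 and Prc1 overlap, so some sites in them are counted more than once. In 1 place the motifs overlapped. Among 105 promoters of other genes of mitosis (a list given below), the shares were 35.2% for TTTGAA and 54.3% for CCAAT. A match is a match of letters only, and no binding was measured.

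**Figure D1:**
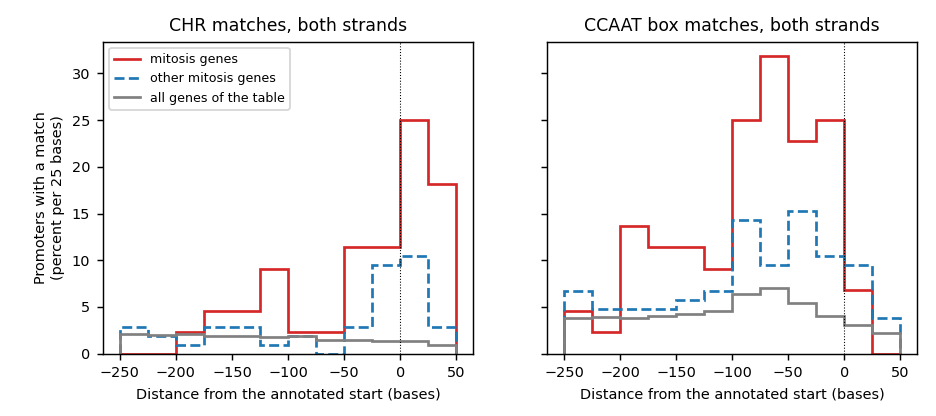
Share of promoters (percent, vertical axis) with a CHR match (left) or CCAAT box match (right) that begins in each 25-base bin, against the distance from the annotated start in bases (horizontal axis), for promoters of the mitosis genes (red), of the other mitosis genes (blue, dashed) and of all genes in the RefSeq promoter table (grey). CHR matches of the mitosis genes are most frequent just after the start, where 25% of promoters have one in the first bin, and CCAAT matches peak upstream of it.

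The labels were checked against marker genes. All 8 embryonic stem cell markers had an exon value above 10 in unlabeled RNA, in the deposited unit described below, from 72.9 for Zfp42 to 6580 for Tdgf1. Of 6 fibroblast markers, 1 was above 10 (Thy1, at 14.45), and Col3a1 and Postn were listed at 0 in both libraries. None of the 4 endoderm or 3 mesoderm markers was above 10, and Gata6, Sox17 and Foxa2 were listed at 0. Of 3 ectoderm markers, Pax6 was at 70.47. Introns took 15.4% of the labeled and 6.26% of the unlabeled library. The table used here holds normalized abundances, from which depth cannot be read, and reads were not analysed here.

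The mitosis genes were abundant in these cells. Exon values are relative abundances per transcript length, called TPM by the authors, in columns that sum to 10 times a TPM column, and they were summed over the coding transcripts of a gene. A gene was compared further where the mean of its exon values exceeded 10, which 49 members and 10330 genes in all passed. The member that did not is Cdc25b, one of the phosphatases that activate Cdk1. Its transcripts had exon values of 2.55 and 2.41 in labeled and 2.78 and 2.06 in unlabeled RNA. The median member stood at 371.29 in unlabeled RNA, against 82.31 over all genes, and at 268.41 in labeled RNA, against 64.93. With all transcripts of each gene summed, non-coding ones included, the unlabeled medians were 671.96 against 87.05. That setting also brought non-coding genes into the background, which grew to 16221 genes. With the lead (most abundant) transcript alone the medians were 233.55 against 57.59. In unlabeled RNA, 47 of the 49 lay above the median of all genes. The order there was led by Top2a (2821), the topoisomerase that untangles sister chromatids, the spindle assembly factor Tpx2 (2229), the condensin subunit Smc4 (2010) and the cyclin Ccnb1 (1949). It ended with Cdc25c (25.63), another Cdk1 phosphatase, and Espl1 (64.35), the separase that cuts cohesin at anaphase. Together the members held 0.777% of the coding exon signal of the unlabeled and 0.637% of that of the labeled library. In a bulk culture, the share of cells near mitosis and the amount of RNA per cell cannot be told apart.

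**Figure D2:**
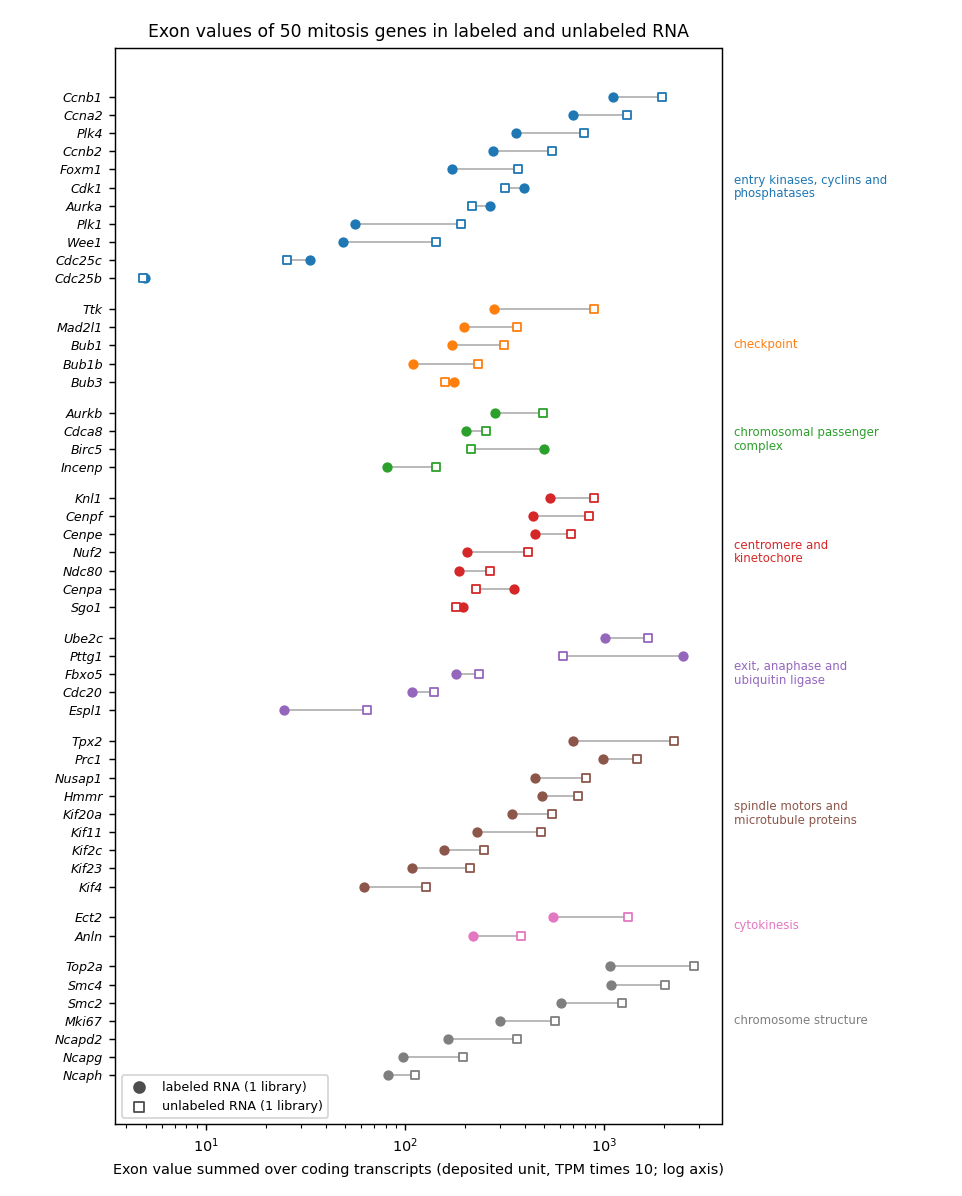
Exon value of each of the 50 mitosis genes (horizontal log axis, deposited unit, TPM times 10, summed over coding transcripts) in labeled RNA (filled circles) and unlabeled RNA (open squares), 1 library each, grouped and coloured by role and ordered by the unlabeled value. For most genes the open square lies to the right of the circle, with Pttg1 and Birc5 the widest gaps the other way and Cdc25b far below the rest.

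The labeled to unlabeled ratio of a gene's exon values was read against the median ratio of all 10330 genes, 0.757 (log2 of -0.40), because each library has its own scale. Below, relative log2 ratio means the log2 ratio of a gene minus this median. For the members its median was -0.45, with quartiles of -0.63 and -0.13, where the quartiles of all genes were -0.59 and 0.70. Below the median of all genes lay 38 of 49 members, against 50% of all genes by construction. At least 2-fold below it lay 4 members (Plk1, Tpx2, Ttk and Wee1), a share to be read against 11.3% of all genes, and 3 (Pttg1, Birc5 and Cenpa) lay at least 2-fold above it, against 18%. Neither share exceeded the background, which was also near the members' share where more of them lay below: 7 of 50 (14%, against 16%) with no filter on low values, 8 of 49 (16.3%, against 16.1%) with all transcripts summed and 8 of 49 (16.3%, against 18.5%) with leaked unlabeled RNA subtracted. Top2a lay just inside the 2-fold limit. The members as a group therefore sat somewhat low and close together. Their share in the upper tail was below that of all genes, and their share in the lower tail was near it. Labeled values exceeded unlabeled values in 8 members, against 34.4% of all genes. The shift of the median depends on what the members are set against. Compared with genes of the same decile of mean exon value it was -0.16, with 31 of the 49 below. With genes of similar spliced length it was -0.24 (36 below), and with genes of a similar number of uridines -0.26 (35 below). Length and uridines are those of a gene's lead transcript, while its ratio sums all its coding transcripts.

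**Figure D3:**
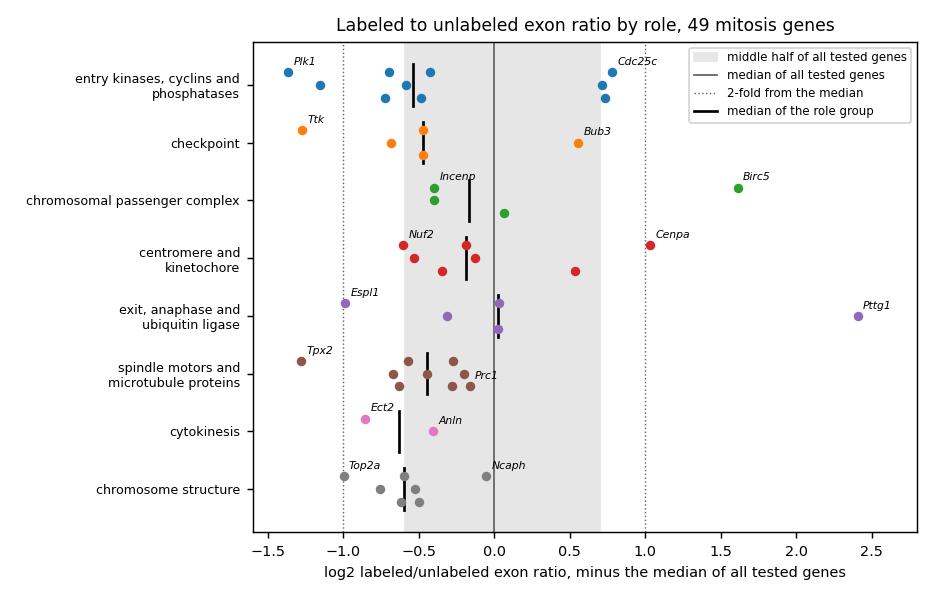
Relative log2 ratio (log2 of the labeled to unlabeled exon value minus the median of all tested genes, horizontal axis) of 49 mitosis genes, 1 dot a gene, by role (vertical axis), with the lowest and highest gene of each role named. Black bars are role medians, the grey band spans the quartiles of all tested genes and dotted lines mark 2-fold. Spindle and chromosome structure genes all lie left of the median, which did not hold for all of them within deciles of length or exon value, and the dots far to the right are Pttg1, Birc5 and Cenpa.

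The 10 entry kinases, cyclins and phosphatases that could be compared had a median relative log2 ratio of -0.54, and 7 lay below the median of all genes. They fell into separate sets. The cyclins stood close to each other. Ccnb1, the main partner of Cdk1, had an exon value of 1101 in labeled and 1949 in unlabeled RNA (relative log2 ratio -0.42). Ccnb2 had 275.11 and 546.01 (-0.59), and Ccna2, which acts from S phase into early mitosis, had 700.43 and 1296 (-0.49). Ccnb1 has processed pseudogenes that match over 51.7% of its transcript at 99.2% identity or, in another case, at 98.1%, so reads could have been divided among them. These were listed at 294.07 and 249.59 in labeled and at 404.88 and 499.07 in unlabeled RNA. No other member had a copy of at least 95% identity over at least 50% of the transcript.

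Several kinases were at the low end. Plk1, which acts at centrosomes, kinetochores and the midzone, had the lowest ratio of all members, with 56.21 in labeled and 190.94 in unlabeled RNA (relative log2 ratio -1.36). It lies at chr7:122159439-122169873 on GRCm38. Wee1, the kinase that holds Cdk1 inactive, had 48.95 and 143.56 (-1.15). Plk4, the kinase of centriole duplication, had 362.61 and 789.76 (-0.72), and the transcription factor Foxm1, a driver of late cell cycle genes, had 173.10 and 371.29 (-0.70). Within deciles of the spliced length of the lead transcript both lay further down, at -1.22 and -1.32. Those lead transcripts have 404 and 1207 bases, while the summed ratio of each gene also includes longer coding transcripts. Plk4 was at -1.53 by its lead transcript alone. The opposite order was seen in 3 members of the group. Cdk1 itself had 397.17 in labeled and 316.01 in unlabeled RNA (0.73), Aurka, a spindle pole kinase, had 268.41 and 216.71 (0.71), and Cdc25c had 33.37 and 25.63 (0.78). The kinase Cdk1 and its cyclins thus differed in order between the libraries. The position of Cdk1 was not stable. It came to 0.11 among genes of similar spliced length. With all transcripts summed it came to 0.00, but there the background also gained non-coding genes.

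The spindle checkpoint group had a median of -0.47 over 5 genes. Ttk, the kinase Mps1 at the top of the checkpoint, was low, with 279.54 in labeled and 890.75 in unlabeled RNA (-1.27). Bub1b, the checkpoint protein BubR1, had 110.27 and 233.55 (-0.68). Bub1, a kinetochore kinase, and Mad2l1, which inhibits Cdc20, were alike at -0.47 each, with unlabeled values of 314.54 and 363.33. Bub3, the WD40 partner of Bub1 and Bub1b, stood on the other side, with 176.08 and 158.40 (0.55).

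In the chromosomal passenger complex, which corrects faulty attachments, the subunits did not move together between the libraries. The kinase Aurkb had 283.10 in labeled and 492.80 in unlabeled RNA (-0.40), its activator Incenp had 81.68 and 142.27 (-0.40), and Cdca8 (borealin) had 202.75 and 256.28 (0.06). Birc5 (survivin), the fourth subunit, was at 495.81 in labeled and 214.34 in unlabeled RNA (1.61), a relative ratio 3.05 times the median of all genes. It lies at chr11:117849251-117855732 on GRCm38. Its value went down to 1.03 among genes of similar spliced length and to 0.98 among genes with a similar number of uridines.

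The 7 centromere and kinetochore genes had a median of -0.19, which turned to 0.11 within deciles of mean exon value, where 3 of the 7 lay below. Cenpa, the histone H3 variant of centromeres, was highest with 352.05 in labeled and 227.88 in unlabeled RNA (1.03), followed by Sgo1, which protects centromeric cohesin, with 196.30 and 179.34 (0.53). Among genes of similar spliced length Cenpa came to 0.41. With all transcripts summed, against a background that includes non-coding genes, Sgo1 came to -0.12. At the outer kinetochore, Nuf2 had 205.71 and 413.28 (-0.61), its partner Ndc80 had 185.92 and 268.12 (-0.13), and Knl1, the scaffold that binds the checkpoint proteins, had 531.71 and 891.70 (-0.34). Nuf2 and Ndc80, subunits of one complex, thus differed in relative log2 ratio. Ndc80 came to 0.11 within deciles of mean exon value, and Knl1 to 0.11 within deciles of spliced length. The large proteins Cenpf and Cenpe, the latter a kinesin, stood at -0.53 and -0.19.

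Genes of anaphase and mitotic exit had a median of 0.03 and quartiles of -0.32 and 0.03, with 1 gene far above. Within deciles of spliced length their median was -0.21, with 4 of 5 below. Within deciles of mean exon value it was 0.15, with 1 of 5 below. Pttg1 (securin), the inhibitor of separase, had 2476 in labeled and 617.59 in unlabeled RNA, a relative log2 ratio of 2.40 or 5.29 times the median of all genes, and 97.2% of genes lay lower. It lies at chr11:43420269-43426202 on GRCm38. All its coding transcripts were higher in labeled RNA, as described below, though they share exons and are not independent values. It was 2-fold or more above the median under every alternative, with a lowest value of 1.77. Espl1, its target, was on the other side with 24.60 and 64.35 (-0.99), and at -1.18 within deciles of mean exon value. Cdc20, the activator of the anaphase promoting complex, had 108.98 and 140.56 (0.03). Fbxo5 (Emi1), an inhibitor of the complex, had 180.46 and 234.16 (0.03). Both thus sat at the median in the comparison with all genes. Ube2c, the ubiquitin-conjugating enzyme of the complex, was abundant at 1008 and 1657 (-0.32).

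All 9 spindle motors and microtubule proteins lay below the median of all genes, with a group median of -0.45, though 6 of 9 did so within deciles of mean exon value (-0.12) and 7 of 9 within deciles of spliced length (-0.21). Tpx2, which activates Aurka at the spindle, was lowest with 694.28 in labeled and 2229 in unlabeled RNA (-1.28). Next came Kif11, the motor that pushes the poles apart (228.67 and 481.31, -0.67), and the chromokinesin Kif4 (62.60 and 127.88, -0.63). The rest ran from Kif23 at -0.57 and Nusap1 at -0.45 through Kif20a at -0.28, Kif2c at -0.27 and Hmmr at -0.20 to Prc1, the midzone bundling protein, at -0.16. The 5 kinesins among them thus lay between -0.67 and -0.27. Both cytokinesis genes were low as well, with a median of -0.63 and, within deciles of mean exon value, of -0.31, though Anln came to 0.01 within deciles of uridine count. Ect2, the exchange factor that activates RhoA, had 552.08 and 1321 (-0.86), and Anln, which scaffolds the contractile ring, had 219.84 and 383.95 (-0.40).

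The 7 chromosome structure genes also all lay below the median, at a group median of -0.60, except that Ncaph came to just above it within deciles of spliced length, mean exon value or uridine count and when lead transcripts alone were compared. Top2a had 1069 in labeled and 2821 in unlabeled RNA, which put it just short of 2-fold below the median. Of the condensin subunits, Ncapd2 stood at -0.76, Smc2 at -0.62, Ncapg at -0.60 and Smc4 at -0.50, an order that changed with the setting (within deciles of spliced length, Smc2 was at -0.86 and Ncapd2 at -0.38), and Ncaph, with 81.93 and 112.49, was near the median at -0.06. The length decile of Smc2 was set by its lead transcript of 1660 bases, which is shorter than its other coding transcripts. Mki67, the surface protein of mitotic chromosomes, had 298.43 and 566.56 (-0.52). Among the genes compared with others of their decile of mean exon value, Top2a came to -0.67, Tpx2 to -0.95 and Ttk to -0.94, while Plk1, Espl1 and Wee1 were the 3 members at least 2-fold below there, at -1.25, -1.18 and -1.07.

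Further genes of mitosis were compared with these members. A list of 105, put together by function, holds the anaphase promoting complex, the constitutive centromere network, the augmin complex, further kinesins and centriole proteins, and 103 passed the minimum. Their median relative log2 ratio was 0.05, 49 of 103 lay below the median of all genes, 16 were at least 2-fold above it, against 18% of all genes, and 3 at least 2-fold below, against 11.3%. Their values ran from -1.32 for Cdc27, a subunit of the anaphase promoting complex, to 3.41 for Haus8, an augmin subunit that passed the minimum through its labeled value of 51.78 and had 6.42 in unlabeled RNA. The other genes were less abundant, with a median unlabeled exon value of 145.65. The median of the 50 chosen genes was thus lower in ratio and higher in level than that of this wider list. The difference was not tested.

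The spliced length and the number of uridines of the lead transcript moved with the ratio of a gene. Uridines were counted and not divided by length. Over 49 members the relative log2 ratio had a Spearman correlation of -0.34 with the spliced length of the lead transcript and of -0.31 with its number of uridines. Over all 10330 genes these were -0.36 and -0.36. Member transcripts were longer than most, with a median of 2842 spliced bases against 2300, 628 uridines against 553, and 14 exons against 8. All these genes share the same libraries, so the correlations are descriptions. The lead transcripts of Pttg1 and Birc5 were short, at 700 and 947 bases. The part of length in the ratios of single members was not tested.

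Where a member had several coding transcripts, their ratios were mostly close. There were 22 members with 1 coding transcript and 28 with more, up to 10 in Prc1. In 27 members at least 2 transcripts had a mean exon value above 10, and their log2 ratios spanned a median of 0.44. In 4 members the span was 2-fold or more, in Plk4 (3.18-fold over 5 transcripts), Prc1 (2.75-fold), Foxm1 (2.27-fold) and Cdk1 (2.14-fold). The extremes were often short transcripts. In Plk4 the lowest ratio belonged to a transcript of 404 bases, with 55.10 in labeled and 222.28 in unlabeled RNA, and the highest to one of 593 bases, with 75.51 and 95.67. The full-length Plk4 transcript of 3479 bases had 89.43 and 171.60. In Cdk1, the transcript of 1253 bases with the highest value had 210.58 and 133.05, the one of 4375 bases had 94.36 and 59.18, and the shortest, of 695 bases, had 92.23 and 123.78. The lead Cdk1 transcript and the longest one were thus higher in labeled RNA. The shortest was not, and its mean exon value (108.0) exceeded that of the longest (76.77). The 7 coding transcripts of Pttg1 ran from 242.19 to 442.43 in labeled and from 65.15 to 112.79 in unlabeled RNA. These values are on the separate scales of the libraries and are not independent of each other. Transcripts of a gene share exons, and how reads were divided among them rests on the authors' quantification.

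**Figure D4:**
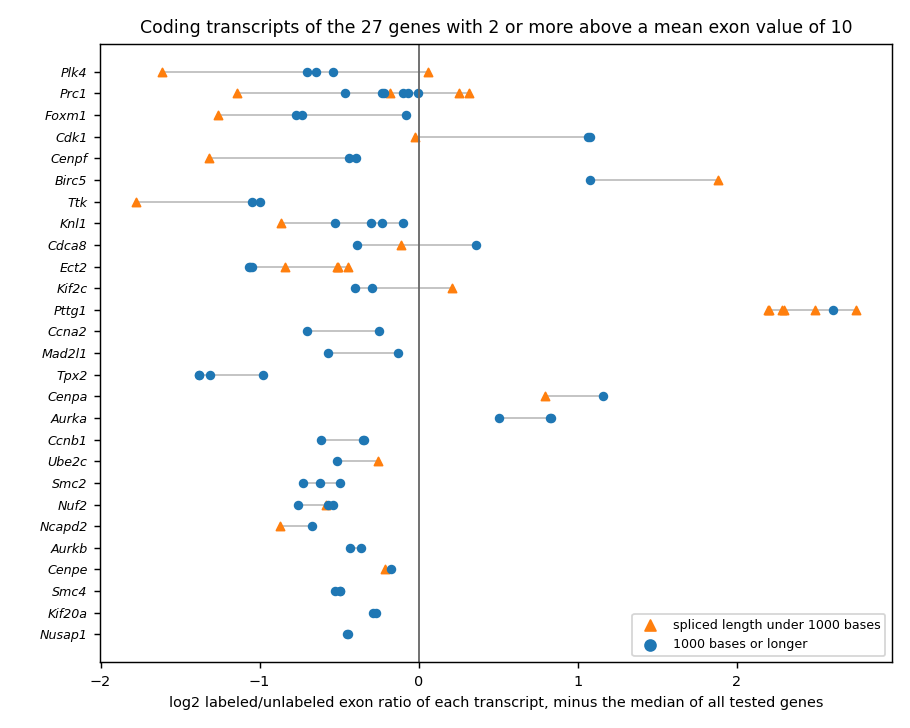
Relative log2 ratio (horizontal axis) of each coding transcript with a mean exon value above 10, for the 27 mitosis genes with 2 or more such transcripts (vertical axis), ordered by the span between their lowest and highest transcript. Triangles are transcripts under 1000 spliced bases and circles longer ones. Pttg1 transcripts lie together far to the right, and the wide spans of Plk4, Prc1 and Foxm1 start at a short transcript on the left.

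Non-coding transcripts of the same genes took much of the exon signal. Annotation lists 131 of them, 82 as retained intron, 33 as processed transcript and 16 as nonsense mediated decay. Coding transcripts held 51.8% of the exon value of the 50 genes in labeled and 52.4% in unlabeled RNA. Retained intron transcripts held 20.9% and 19.0%, processed transcripts 17.9% and 21.3%, and transcripts annotated for decay 9.41% and 7.38%. The split was similar in both libraries. It differed among genes: in Cenpa non-coding transcripts held 85.7% of the labeled and 83.5% of the unlabeled value, and in Top2a 75.0% and 71.0%, while 16 members had none annotated.

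For each transcript, intron over exon value was then taken in each library. In the model the authors used, introns mark premature RNA, so the ratio is higher in RNA made within the pulse than in RNA made before it. All 118 member transcripts had an intron and an exon value above 0 in both libraries and a mean exon value above 1, as did 31386 coding transcripts in all. The labeled ratio had a median of 0.267 for member transcripts, against 0.570, and 99 of 118 lay below that median (50% of all transcripts by construction). The unlabeled ratio had a median of 0.0386, against 0.111, with 101 below. Introns of mitosis genes were thus low next to their exons in both pools. Over gene sums the picture was the same, with medians of 0.248 against 0.465 in labeled and 0.0295 against 0.0851 in unlabeled RNA, and 41 of 49 members below each. These differences moved with abundance. Member transcripts had a median mean exon value of 158 against 24.1, and compared with transcripts of the same decile of mean exon value the log2 differences went from -1.10 and -1.53 to 0.01 and 0.06. Compared with transcripts of similar unspliced length they stayed at -0.96 and -1.55.

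The ratios varied among members by over an order of magnitude. Ube2c had the lowest labeled ratio of a lead transcript, 0.0434, followed by Mad2l1 (0.0658), Ccnb2 (0.0680) and Birc5 (0.0685). Ccna2 had the lowest unlabeled ratio, 0.00373, with intron values of 53.95 in labeled and 2.73 in unlabeled RNA beside exon values of 340.69 and 731.28. Members with a long spliced transcript or many exons were not all high. Mki67 (10061 spliced bases, 14 exons) was at 0.0857 and 0.0047, and Top2a (36 exons) at 0.0839 and 0.0080. At the high end among the compatible lead transcripts stood Wee1, with 0.902 in labeled and 0.0724 in unlabeled RNA. Its intron value in labeled RNA, 44.16, nearly equalled its exon value of 48.95. Ect2 was next with 0.739 and 0.0467. Wee1 and Ect2 were also among the members with a low labeled to unlabeled exon ratio. Over the 49 members, the relative log2 ratio had a Spearman correlation of 0.49 with the gene's unlabeled intron to exon ratio. With the labeled one it was -0.02. Over all genes with such a ratio above 0 the correlations were similar, at 0.44 and -0.10. The unlabeled intron to exon ratio shares the unlabeled exon value with the relative log2 ratio, and the labeled one shares the labeled value.

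**Figure D5:**
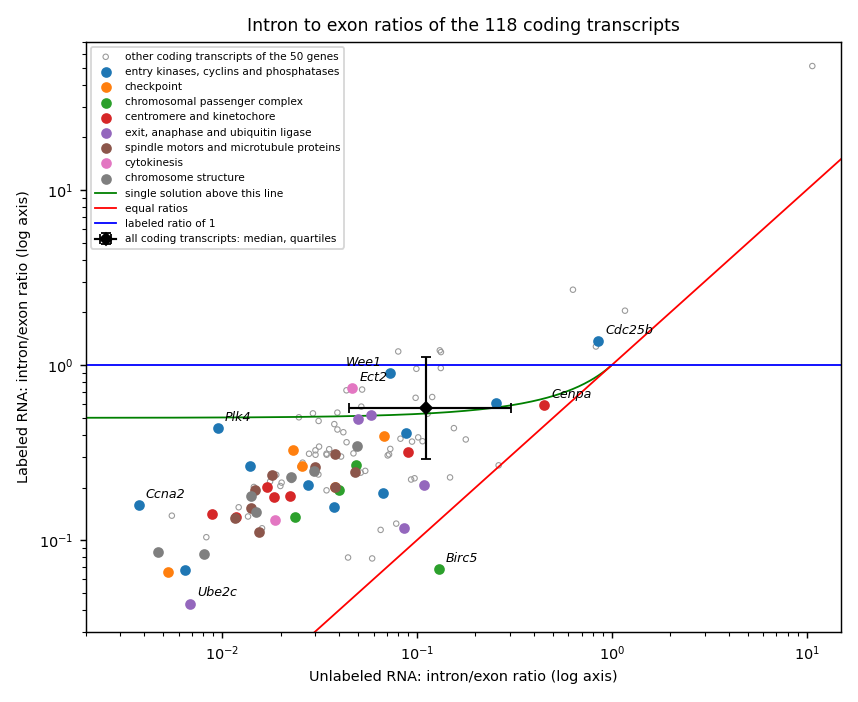
Intron to exon ratio in labeled RNA (vertical log axis) against that in unlabeled RNA (horizontal log axis) for the 118 coding transcripts of the 50 genes, with lead transcripts coloured by role and the others as open circles. The black diamond with bars gives the median and quartiles of all coding transcripts, and the lines bound the regions of the model. Nearly all lead transcripts lie left of and below the diamond, between the red and blue lines, and Birc5 lies below the red line.

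A transcript is compatible with the model where its labeled ratio is under 1 and above its unlabeled ratio. This held for 109 of 118 member transcripts (92.4%), against 66.7% of all coding transcripts. Member transcripts were also more abundant, with a median mean exon value of 158 against 24.1. The paper describes transcripts with a labeled ratio above 1 as much lower in expression. The shares were not compared at matched abundance. A labeled ratio of 1 or more was found in 8, against 28.2%. These were both Cdc25b transcripts, 3 short ones of Ect2, 2 of Cenpa and 1 of Kif2c. A labeled ratio not above the unlabeled one was found in 1, against 5.1%. It was the lead transcript of Birc5, of 4 exons, with exon values of 359.11 and 128.90 and intron values of 24.61 and 16.70. The other Birc5 transcript, of 3334 bases, had intron values of 14.23 and 0.71 and was compatible. Cenpa stood apart in a related way, as its lead transcript had ratios of 0.592 and 0.449, the latter above that of every other lead transcript of the members except Cdc25b.

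The rates of the model could be solved for few members. Of the 48 compatible lead transcripts, 42 had no exact solution (against 62.9% of compatible lead transcripts of all genes), 4 had 1 (Cdc25c, Espl1, Ect2 and Wee1, against 28.9%) and 2 had 2 (Fbxo5 and Plk4, against 8.14%). Where none existed, the authors' approximation was used. It does not give back the measured ratios. Its median distance from them, in natural log units over both ratios, was 0.953 for members and 0.809 for all genes. The medians below mix solved and approximated transcripts, in unlike shares for members and all genes. The median processing half-life of members was then 2.81 min, against 3.74 min, with 39 of 48 shorter than the median of all lead transcripts, and the median degradation half-life was 22.4 min, against 19.6 min. Among lead transcripts of the same decile of mean exon value, the log2 differences went from -0.41 to -0.094 for processing and from 0.19 to -0.23 for degradation. Single half-lives were not stable. The highest degradation half-life of a member over up to 5 ways of computing it was a median of 13.4 times the lowest. This ran from 1.23 times for Wee1 to 544 times for Plk4. The low figure of Wee1 does not show stability. Several of these ways reuse its single exact solution, and with leakage subtracted it had no half-life. For Wee1 the degradation half-life came to 341 min and the processing half-life to 32.8 min, both the longest of the member lead transcripts, and for Cdc25c to 4.27 and 4.07 min. For the 42 without a solution the degradation half-life had a Spearman correlation of -0.96 with the labeled intron to exon ratio alone.

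The promoter elements were set beside these ratios. The 29 members with a CHR match had a median relative log2 ratio of -0.52, from -1.36 (Plk1) to 1.03 (Cenpa), and 22 lay below the median of all genes. Of the 12 without, the 11 that passed the minimum had a median of -0.42, from -0.72 (Plk4) to 2.40 (Pttg1), with 8 below. The ranges overlapped over most of their length, and the difference was not tested. Of the 7 members with neither element, 5 lay below the median, and the others were Pttg1 and Birc5. For Pttg1 the searched window lies mostly inside its lead transcript, so a lack of matches says little about its main promoter.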

How the data were processed

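Labeled and unlabeled RNA of 1 culture of WT embryonic stem cells were analysed (1 library each, both replicate 1). The authors aligned reads to exonic and intronic sequences with STAR 2.5.0 and quantified them with RSEM on mm10/GRCm38, per the submitters' processing notes and the study's methods. The deposited values are treated as scores: the authors name them TPM, but a column adds up to 10 times what TPM would, and thresholds apply to the values as deposited. The values used here carry no depth, and reads were not analysed, so neither counting intervals nor count tests are given. A test on TPM was not planned, as each pool has 1 library.

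From there, biotypes and symbols were taken from GENCODE M21 (90.9% of 121429 exon values matched). Genes with a mean exon value above 10 and transcripts with a mean above 1 and all values above 0 were kept, with no pseudocount. Half-lives used the study's Eqs. 10 to 17, with 4000 grid points and a root tolerance of 1e-06, and the solver was tested on simulated data. A gene counts as above or below where it lies at least 2-fold from the median of all genes. Copies were searched with blastn 2.17.0. Computation used scipy 1.17.1, pandas 2.3.3, numpy 2.4.6 and Python 3.11.15, and plots matplotlib 3.10.9.

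All 50 members were accounted for. Those given with full values were 15 regulators named in a list, the 5 highest and 5 lowest in ratio, the highest and lowest of each role, and the 3 with the widest span among transcripts; others were added after their values were seen. The rule for members uses symbols and biotypes, not values, but members, role groups, gene lists and alternatives were all chosen with earlier results of these data known. Alternatives varied the filters, pseudocount, transcripts summed, comparison genes, subtraction of leaked unlabeled RNA, and the rate solution.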

Additional observations from a re-analysis of the deposited data

How the results depend on the processing

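No paired analysis was possible because each pool has 1 library. Leaving out a library was not possible either. Of the member medians, shares and counts recomputed, 65 stayed within the error of the median, the Wilson interval or 1.5 times the count, 28 moved and 3 reversed. Of the values of single members, 474 stayed within 1.5-fold of their main ratio and 10 moved. This band is wide next to the median relative log2 ratio of -0.45, and a small change of sign counted as staying. Ndc80 stayed with -0.13 against 0.11 within deciles of mean exon value, and Knl1 with -0.34 against 0.11 within deciles of spliced length. The count of 474 therefore does not show that single values were stable. Changing sides was counted only for members at least 2-fold from the median, and none did.

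The log2 difference in intron to exon ratio reversed within deciles of mean exon value, to 0.0066 labeled and 0.0606 unlabeled, as did that in degradation half-life, to -0.23. That in processing half-life came to -0.094. With a mean exon value above 10 the ratio differences were -0.74 and -0.95. The median relative log2 ratio was -0.63 with no filter, -0.20 above 100, -0.66 with all transcripts summed, -0.58 with leakage subtracted (0.142 times the unlabeled value), and -0.24, -0.16 and -0.26 within deciles of spliced length, mean exon value and uridine count. At least 2-fold below lay 7 members with no filter (16% of all genes), 8 with all transcripts (16.1%) and 8 with leakage subtracted (18.5%), and at least 2-fold above lay 1 within deciles of uridine count (Pttg1, against 14.7%). The median unlabeled exon value was 671.96 with all transcripts and 233.55 with the lead transcript only. Summing all transcripts also changed the comparison, as the background grew from 10330 to 16221 genes with non-coding genes included.

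With lead transcripts only, the median intron to exon ratios were 0.201 and 0.0266 (0.473 and 0.0931 over all genes) and 96% were compatible (71.1%). Leakage subtraction put the labeled ratio at 0.363 over transcripts and 0.340 over genes, and processing at 2.54 min. Degradation and processing half-lives were 4.38 and 1.71 min by Eq. 15, 31.96 and 4.06 min for the 6 with a solution, and 60.1 and 1.31 min with the second library read as total RNA. Apart from the deciles and changed solvers, the causes were not tested. Alternatives with deciles of uridine count, of mean exon value for the intron ratios and half-lives, of unspliced length, without Ccnb1, and all those of the gene intron to exon ratio and the exon level, were chosen after seeing the data.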
